A study of Mus musculus with 3 samples.

Results

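The nuclear genes of oxidative phosphorylation were examined on 3 arrays of embryonic mouse mammary cells. The members were the genes whose symbol names a subunit of complex I (Nduf), complex II (Sdh), complex III (Uqcr and Cyc1), complex IV (Cox) or the ATP synthase, complex V (Atp5), together with Cycs, the gene of cytochrome c. For each gene, the brightest on average of the probe sets annotated with that gene alone was used. This rule found 79 of 17097 measured genes: 32 of complex I, 4 of complex II, 8 of complex III, Cycs, 17 of complex IV and 17 of complex V. The symbol patterns also take Cox7a2l, which encodes a factor that joins complexes III and IV into supercomplexes, and Ndufa4, which is known today as a subunit of complex IV. Subunit genes that carry other symbols, those encoded in the mitochondrial DNA and several nuclear ones such as Cox7b, were not analysed here.

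The samples formed 1 group with no control: CD49fHi Lgr5Hi mammary cells, which carry much of the surface integrin CD49f and a bright reporter, from female Lgr5-IRES-GFP embryos at embryonic day 14 (E14). Each array carried the pooled female embryos of 1 litter, after a sort of either 813 or 2000 cells and 25 cycles of whole transcriptome amplification. The reporter marks cells by the activity of the Lgr5 locus, and a pool cannot tell levels within 1 cell type from a mixture of types. The 6 genes taken as markers of the sorted cells were all above background. Lgr5 and Itga6 (the gene of CD49f) match the sort, and Trp63, Krt5, Krt14 and Epcam were added to them. Markers of dermal mesenchyme were above background in 6 of 7 cases, with Col1a1 at a log2 value of 12.99 ± 0.15 (SD, n = 3), and the adult globin gene Hba-a1 stood at 12.02 ± 0.74. Of the other marker lists, 3 of 7 erythroid, 1 of 6 endothelial and 3 of 6 leukocyte genes were above background. Over all genes the share above background was 55.1%. The part of RNA from such cells in the levels below was not tested. Fewer cells of a type and less RNA per cell cannot be told apart in such pools.

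In oxidative phosphorylation, complexes I and II pass electrons from NADH and succinate to ubiquinone, complex III passes them on to cytochrome c, and complex IV transfers them to oxygen. Complexes I, III and IV pump protons across the inner mitochondrial membrane, and complex V uses the gradient to make ATP. Most subunits are encoded in the nucleus and are made in nearly every cell, while complex IV has some subunits with a further isoform that is largely restricted to muscle, lung or testis.

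Nearly the whole machinery was detected. Of 79 members, 76 were above background, against 55.1% of all genes. A gene was called above background when its log2 value exceeded the threshold of its array, the 95th percentile of 74 chemosensory receptor genes, with an adjusted p under 0.05 (limma, one-sided, Benjamini-Hochberg over 17097 genes). All 76 lay above the threshold on each of the 3 arrays, with adjusted p from 8.77e-06 to 0.00205. The 3 others were Sdhd of complex II and the complex IV genes Cox7a1 and Cox7b2. The members' median log2 value was 10.18, which lay 4.08 above the threshold, while the median of all genes lay 0.78 above it. With 44 tissue-restricted genes as background instead, 66 of 79 were called, against 20.9% of all genes. The 10 lost were 5 tissue isoforms of complex IV and Ndufa6, Ndufs1, Ndufs8, Sdhc and Uqcrfs1. Complexes I, III and V had every measured member above background, 32 of 32, 8 of 8 and 17 of 17. Genes with a choice of several probe sets were called more often across the array (72.5%) than genes with 1 probe set (42.6%). Among the members, 38 of 38 with several probe sets and 38 of 41 with 1 were above background.

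**Figure D1:**
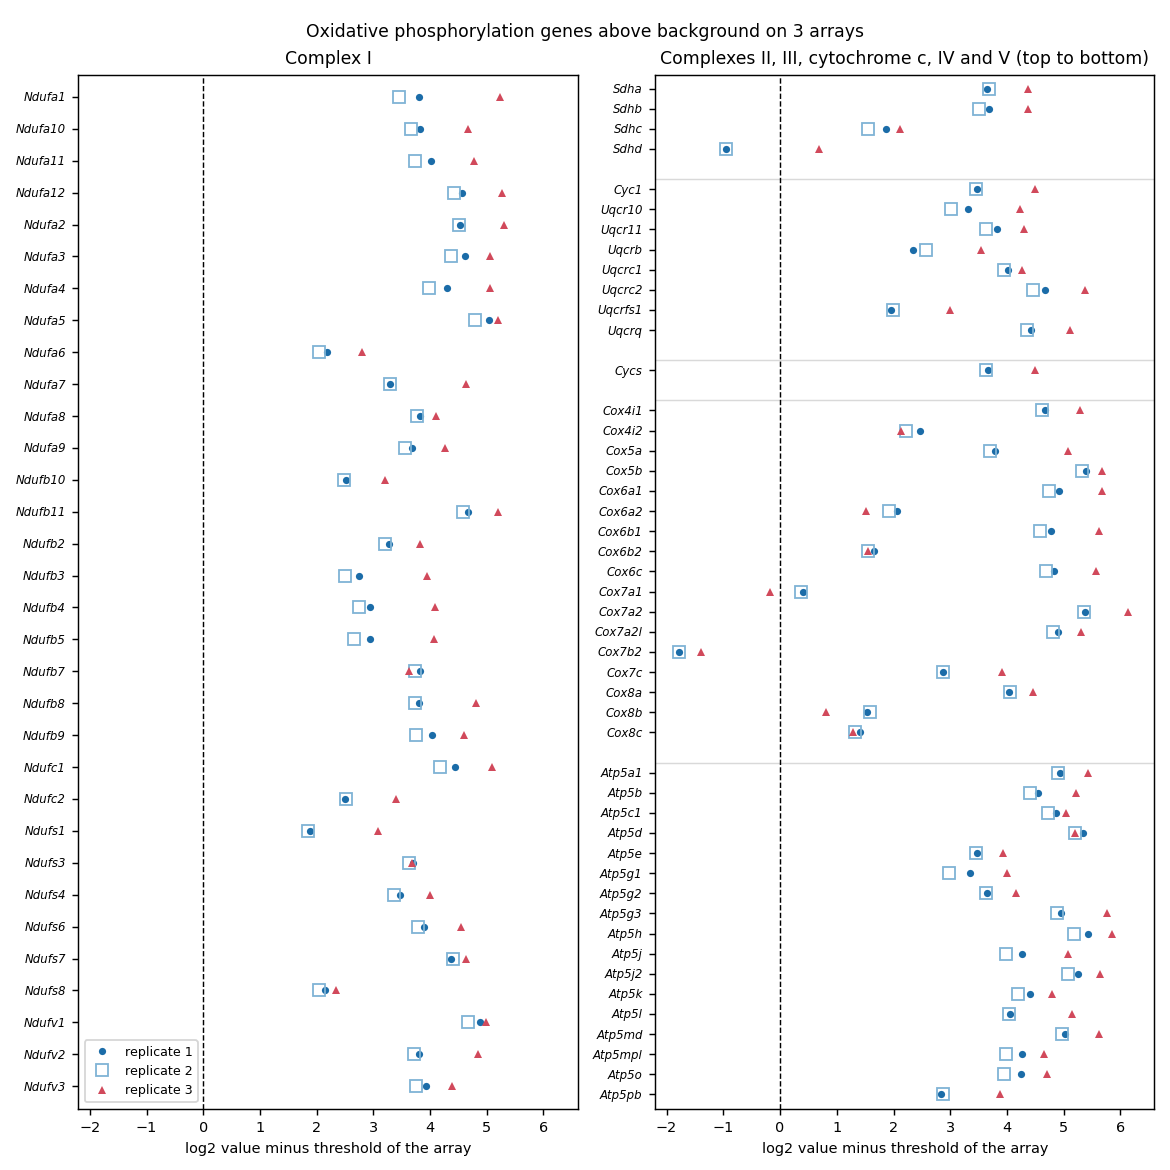
Log2 value minus the threshold of the array (x axis) for each of the 79 members (rows), complex I on the left and the other complexes on the right, with 1 symbol per array. The dashed line at 0 is the threshold; only Sdhd, Cox7a1 and Cox7b2 have a symbol left of it, and replicate 3 is the rightmost symbol for most members.

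Complex I is the entry point of electrons from NADH. Its flavoprotein gene Ndufv1, whose product binds NADH, measured 11.02, 10.85 and 10.97 on the log2 scale of replicates 1, 2 and 3, and its partner Ndufv2 had 9.95, 9.89 and 10.83. The iron-sulfur protein gene Ndufs1, the largest subunit of the complex, had 8.03, 8.02 and 9.07. Ndufv1 was thus level over the litters, while replicate 3 stood highest for Ndufv2 and Ndufs1. Of the core genes at the ubiquinone end of the peripheral arm, Ndufs7 had 10.50, 10.58 and 10.61. Ndufs8 had 8.29, 8.22 and 8.32, a mean of 2.17 above the threshold (adjusted p = 0.000128). Ndufs3, another core gene of that arm, had 9.85, 9.81 and 9.66 and was one of the few members lowest on replicate 3.

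The other genes counted here with complex I, apart from Ndufa4, encode supernumerary subunits, which surround the core and are needed for its assembly and stability. Ndufa1 varied most of all members above background, with 9.94, 9.62 and 11.22 on replicates 1, 2 and 3. Ndufb3 had 8.89, 8.67 and 9.93, and Ndufb5 had 9.08, 8.83 and 10.05. All 3 genes were highest on replicate 3 and lowest on replicate 2. The values of Ndufa7 were 9.43, 9.46 and 10.63, and those of Ndufb4 were 9.08, 8.92 and 10.07, again with replicate 3 above the others. By contrast Ndufb7 had 9.97, 9.90 and 9.62 and was lowest on replicate 3. The remaining genes, Ndufa4 included (Ndufa2 to Ndufa6, Ndufa8 to Ndufa12, Ndufb2, Ndufb8 to Ndufb11, Ndufc1, Ndufc2, Ndufs4, Ndufs6 and Ndufv3) lay between 2.34 (Ndufa6) and 5.01 (Ndufa5) above the threshold as means of the 3 arrays. The adjusted p of every complex I gene was at most 0.000966, that of Ndufs1.

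Complex II, succinate dehydrogenase, belongs to both the citric acid cycle and the respiratory chain, and was the complex with 1 gene of 4 not above background. Sdha, the flavoprotein that oxidises succinate, measured 9.79, 9.86 and 10.36 (log2, replicates 1, 2 and 3). Sdhb, the iron-sulfur subunit, had 9.82, 9.68 and 10.37, and Sdhc, a membrane anchor, had 8.0, 7.72 and 8.10. These 3 genes were above background on every array. Sdhd, the other membrane anchor, had 5.18, 5.22 and 6.68, so it lay above the array's threshold on replicate 3 and below it on replicates 1 and 2 (adjusted p = 1). Its only probe set carries the suffix x of the manufacturer, which marks probes that may bind other transcripts. The same suffix stands on the probe sets used for Cox5b and Cox8a, which were called. A suffix s, x or a was carried by the probe sets used for 42 of the 79 members.

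Complex III oxidises ubiquinol, and its 8 genes and Cycs were highest on replicate 3 without exception. The core protein gene Uqcrc1 had 10.17, 10.12 and 10.25 on replicates 1, 2 and 3, and Uqcrc2 had 10.81, 10.64 and 11.37. The redox subunits were Uqcrfs1, the Rieske iron-sulfur protein, with 8.10, 8.17 and 8.99, and Cyc1, cytochrome c1, with 9.62, 9.62 and 10.49. Replicate 3 exceeded the mean of the other arrays by 0.11 for Uqcrc1 and by 0.87 for Cyc1. Of the small subunits, Uqcrb had 8.49, 8.74 and 9.52 and Uqcr10 had 9.45, 9.19 and 10.22, the widest ranges in this complex. Uqcr11 and Uqcrq lay 3.91 and 4.63 above the threshold. Cycs, whose product carries electrons to complex IV and takes part in apoptosis when released, had 9.81, 9.80 and 10.49 (adjusted p = 6.53e-05).

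Complex V was detected throughout, in the catalytic head as in the membrane part. The head genes Atp5a1 (alpha) and Atp5b (beta, which holds the catalytic sites) measured 11.08, 11.07 and 11.42 and, for the beta subunit, 10.69, 10.58 and 11.21 (log2, replicates 1, 2 and 3). Atp5c1, the gamma subunit of the rotating stalk, had 11.01, 10.89 and 11.03. Each of these genes changed by less than 1 log2 unit over the litters. The c-ring that turns in the membrane is encoded by 3 genes whose mature proteins are the same and whose targeting peptides differ. Of these, Atp5g1 had 9.50, 9.16 and 9.98, Atp5g2 had 9.79, 9.80 and 10.15 and Atp5g3 had 11.10, 11.06 and 11.75. All 3 were above background, and each was highest on replicate 3. The other members (Atp5d, Atp5e, Atp5h, Atp5j, Atp5j2, Atp5k, Atp5l, Atp5md, Atp5mpl, Atp5o and Atp5pb) lay between 3.20 (Atp5pb, the b subunit of the outer stalk) and 5.49 (Atp5h, the d subunit) above the threshold.

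Complex IV, cytochrome c oxidase, held the contrast within the set. Its 7 tissue isoforms (Cox4i2, Cox6a2, Cox6b2, Cox7a1, Cox7b2, Cox8b and Cox8c) had 5 genes above background and a median of 1.34 above the threshold, and its other 10 genes had 10 above background and a median of 5.0. These medians describe different probe sets and do not measure relative abundance. With the brightest of 23 antigenomic control probe sets as threshold, 1 of the 7 tissue isoforms was called, against 10 of the other 10 and 31.6% of all genes. The 44 tissue-restricted genes include genes of spermatogenic cells such as Prm1. With these 44 as background, none of the 7 was called, against 10 of the other 10 and 20.9% of all genes. Under the receptor threshold itself, 14 of those 44 tissue-restricted genes were called.

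The tissue isoforms are given family by family. Cox4i2, the isoform of lung, measured 8.61, 8.4 and 8.11 on the log2 scale, and its general counterpart Cox4i1 had 10.81, 10.80 and 11.27. The muscle isoform gene Cox6a2 had 8.21, 8.09 and 7.51, and the general Cox6a1 had 11.05, 10.92 and 11.67. Cox6b2, expressed mainly in testis, had 7.79, 7.72 and 7.55, and the general Cox6b1 had 10.91, 10.75 and 11.60. In these 3 families the tissue isoform was lowest on replicate 3 and the general isoform highest on it. The muscle gene Cox7a1 had 6.55, 6.54 and 5.80 and was not called (adjusted p = 0.246). Without replicate 3 it was called, at 0.39 above the threshold. The general Cox7a2 had 11.52, 11.54 and 12.12, and the supercomplex factor gene Cox7a2l had 11.04, 10.99 and 11.30. Cox7b2, a testis gene, had 4.36, 4.39 and 4.60 and was below the threshold on every array. Muscle Cox8b had 7.67, 7.76 and 6.81, the testis gene Cox8c had 7.56, 7.50 and 7.27, and the general Cox8a had 10.19, 10.22 and 10.46. On average, Cox8b and Cox8c stood above the receptor threshold but below that of the tissue-restricted genes. Cox5a and Cox5b, subunits without such an isoform, had 9.93, 9.87 and 11.07 and 11.53, 11.49 and 11.66. Cox6c and Cox7c lay 5.03 and 3.22 above the threshold.

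**Figure D2:**
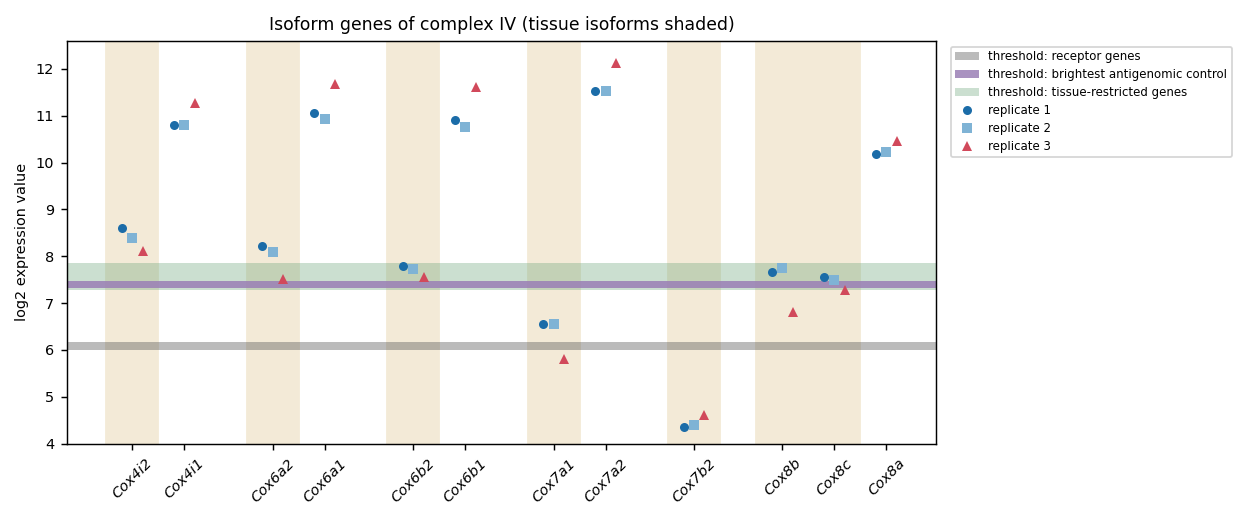
Log2 expression values (y axis) of isoform genes of complex IV on the 3 arrays, family by family, tissue isoforms shaded and to the left of their general counterpart. Bands give the range over the arrays of each of the 3 thresholds; Cox4i2 and Cox6a2 are the shaded genes that exceed all 3 thresholds of the same array on each array, and every general isoform shown lies above all bands.

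Markers of muscle and of spermatogenic cells, in which most of these isoforms are known, were set beside them. Of 17 muscle genes 4 were above background (Myh3, Myod1, Ryr1 and Tnni2), against 55.1% of all genes. Embryonic myosin Myh3 had 7.63, 7.88 and 6.77 on replicates 1, 2 and 3, and the myogenic factor Myod1 had 7.14, 7.28 and 6.80. Cardiac actin Actc1 had 7.46, 8.14 and 5.07 and was not called (adjusted p = 0.193), although it exceeded the threshold on replicates 1 and 2. These 3 muscle genes were lowest on replicate 3, as the 5 tissue isoforms above background were. Over the 4 muscle genes above background, replicate 3 minus the mean of the other arrays had a median of -0.45. Of these 4, 3 were lowest there and Ryr1 was highest there. Over all 17 the median log2 value was 5.59, 5.76 and 5.52 on the 3 arrays, and 10 of the 17 were lowest on replicate 3. Acta1 (5.25 ± 0.07, SD, n = 3) and Myl1 (5.20 ± 0.18) were below the threshold. Of 11 spermatogenic genes 3 were above background (Prm1, Tnp2 and Ldhc), against the same 55.1%. All 3 were lowest on replicate 3, with a median difference of -0.39. Over all 11 the median difference was 0.19, the other direction, and 5 of the 11 were lowest there. The germ cell genes Ddx4 (3.85 ± 0.11) and Dazl (4.69 ± 0.17) were below the threshold, and the medians of the 11 were 5.36, 5.29 and 5.42. Prm1 and Tnp2 also belong to the 44 tissue-restricted genes. The part of such cells in the isoform signal was not tested.

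Promoters of 3 complex IV genes are shown, among them Cox8b and Cox8a, isoforms of 1 subunit. The windows run from 250 bases before to 50 bases after the annotated start (RefSeq, GRCm38.p6). Capitals mark matches to the motif core of NRF-1 (GCGCA, any base, then GCGC), a transcription factor known for activating respiratory chain genes, and to CCGGAAG, the motif core of Ets factors such as GABP, on either strand. The muscle isoform Cox8b lies at chr7:140900397-140900696, and its general counterpart Cox8a at chr19:7217567-7217866. The general isoform Cox6a1, at chr5:115348909-115349208, holds both motifs. All 3 genes lie on the minus strand, and each sequence reads in the direction of the gene.
Cox8b: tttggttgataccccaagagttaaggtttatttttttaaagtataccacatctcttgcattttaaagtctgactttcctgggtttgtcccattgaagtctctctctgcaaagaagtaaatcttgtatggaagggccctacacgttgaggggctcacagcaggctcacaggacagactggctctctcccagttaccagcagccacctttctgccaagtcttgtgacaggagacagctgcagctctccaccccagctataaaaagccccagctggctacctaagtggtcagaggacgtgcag
Cox8a: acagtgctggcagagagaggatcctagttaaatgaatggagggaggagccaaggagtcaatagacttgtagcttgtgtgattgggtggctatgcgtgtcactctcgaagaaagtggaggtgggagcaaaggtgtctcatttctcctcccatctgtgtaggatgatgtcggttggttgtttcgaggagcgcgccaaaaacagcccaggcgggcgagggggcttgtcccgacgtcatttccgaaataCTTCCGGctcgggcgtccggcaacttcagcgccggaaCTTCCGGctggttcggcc
Cox6a1: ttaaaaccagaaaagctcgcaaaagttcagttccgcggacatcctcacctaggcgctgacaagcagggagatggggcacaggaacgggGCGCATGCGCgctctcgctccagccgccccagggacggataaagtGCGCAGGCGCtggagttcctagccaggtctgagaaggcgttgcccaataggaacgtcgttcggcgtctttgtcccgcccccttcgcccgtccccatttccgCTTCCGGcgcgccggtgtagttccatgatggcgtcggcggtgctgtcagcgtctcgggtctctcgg
The Cox8b window held neither motif and 2 CpG dinucleotides. The Cox8a window held 2 matches to the Ets motif and 19 CpG, and the Cox6a1 window held 2 matches to the NRF-1 motif, 1 to the Ets motif and 32 CpG. No match overlapped another.

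Windows were matched for 64 of the 79 members by gene ID. The NRF-1 core was found for 16 of the 64 (25.0%), among them Sdha, Uqcrc1, Ndufs6, Atp5c1 and Sdhd, against 10.9% of 7535 other genes above background, 4.97% of 5915 genes not above background and 5.19% of all 27025 genes with a window. The Ets core was found for 15 of 64 (23.4%), against 19.9%, 8.79% and 9.93% in the same sets. Both cores were found for 4 of the 64. Of the 4 tissue isoforms of complex IV with a window, none held either motif. Among the other complex IV genes with a window, Cox5a, Cox5b, Cox7a2, Cox7a2l and Cox7c also held neither, and Cox6a1, Cox6b1 and Cox8a held at least 1. The CpG counts of the 4 tissue isoforms were between 2 and 10, with a median of 8.5. The other 60 members had a median of 20 CpG. The medians were 22 for other genes above background, 9 for genes not above background and 8 for all genes, so the 4 isoforms were near the last of these. A match is a description of letters, and Sdhd, which held both motifs, was not above background.

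The litters differed in the level of these genes, and mainly in 1 direction. Of the 76 members above background, 66 were highest on replicate 3, against 61.7% of all genes above background, and 53 were lowest on replicate 2, against 37.1%. The value on replicate 3 exceeded the mean of the other arrays by a median of 0.53 for the members and 0.24 for all genes above background, a surplus of 0.29. On replicate 2 the medians were -0.33 for the members and -0.13 for all genes, and on replicate 1 they were -0.18 and -0.11, which quantile normalization turned to 0.0086 and 0.08. Some markers of cell types also differed on replicate 3. The 6 genes taken as markers of the sorted cells had a median of 0.61 above the other arrays, with 5 of 6 highest there. The 3 erythroid genes above background had a median of -1.25. Over all 7 erythroid genes it was -0.52, with 4 of the 7 lowest on replicate 3. Pecam1, the 1 endothelial gene above background, had 8.12, 8.30 and 6.47 on replicates 1, 2 and 3. Over all 6 endothelial genes the median was -0.02, with 2 of the 6 lowest on replicate 3. The part of the cell mixture in the members' values was not tested. Each litter was measured once, so no test of these differences exists, and litter, number of sorted cells and processing cannot be told apart. The array of replicate 3 also had another distribution of values, with a median over all probe sets of 6.52 against 6.25 on each of the others. After quantile normalization of the arrays, the median of the members on replicate 3 was 0.12 and that of all genes was -0.14, and the surplus was 0.25. Under that setting 46 of the 76 members were highest on replicate 3, against 34.3% of all genes.

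The same medians are given by complex, without a test between complexes. Replicate 3 minus the mean of the other arrays had a median of 0.54 for complex I, 0.54 for the 3 genes of complex II, 0.75 for complex III, 0.68 for Cycs and 0.38 for complex V, against 0.24 for all genes above background. Within complex IV it was -0.39 for the 5 tissue isoforms above background and 0.62 for the other 10 genes, Cox7a2l included. All 5 tissue isoforms were lowest on replicate 3, also after quantile normalization (median -0.79) and after subtraction of the array medians (-0.66). On replicate 3 the 44 tissue-restricted genes had a median of 0.14, with 17 of the 44 lowest there, and the 14 of them above background had -0.18. Of the 71 other members, 5 were not highest on replicate 3: Ndufa5, Ndufb7, Ndufs3, Ndufv1 and Atp5d. The median of the receptor genes was 0.18 above the other arrays on replicate 3 and that of the antigenomic controls 0.17 above. By level, the members exceeded all genes above background in each bin of 1 log2 unit from 8 to 12, for example 0.64 (18 members) against 0.35 (1561 genes) from 9 to 10, and 0.38 (13 members) against 0.31 (290 genes) from 11 to 12. Between 7 and 8, where the 5 members included 4 tissue isoforms, the median was -0.25 against 0.22.

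**Figure D3:**
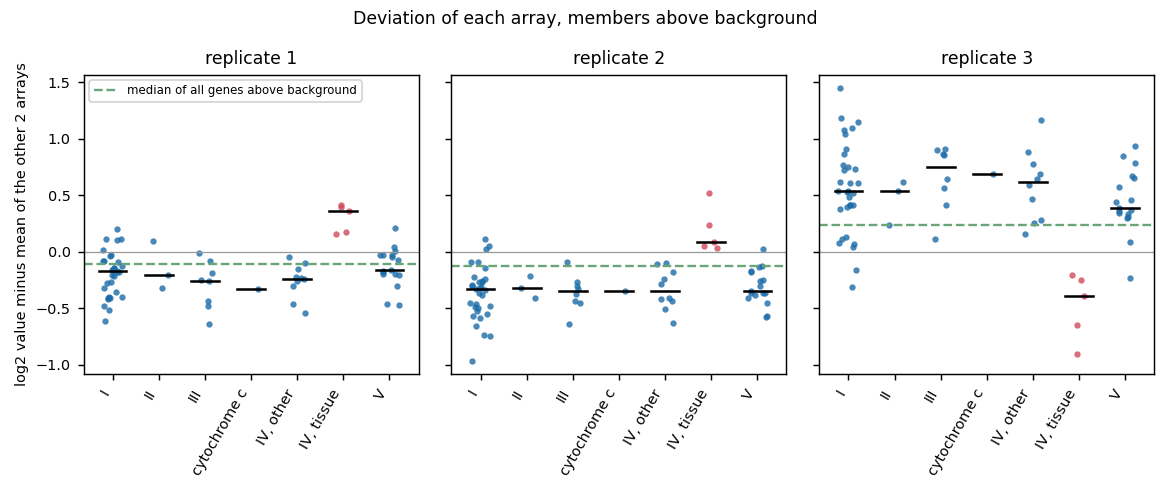
Log2 value of an array minus the mean of the other 2 arrays (y axis) for the 76 members above background, by complex, with the tissue isoforms of complex IV apart (red). Black bars are medians and the dashed line is the median of all genes above background; on replicate 3 the members sit mostly above that line, and the 5 tissue isoforms lie below 0.

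Large single differences occurred at a share near that of all genes. On replicate 3, 7 of 76 members exceeded the mean of the other arrays by more than 1 log2 unit (Ndufa1, Ndufa7, Ndufb3, Ndufb4, Ndufb5, Ndufs1 and Cox5a), against 9.26% of all genes above background, and none lay as far below, against 1.52%. On replicate 1 no member lay that far above (all genes 0.18%) or below (1.08%), and on replicate 2 none lay that far above (0.17%) or below (0.541%). The median SD over the litters was 0.32 for the members above background and 0.26 for all genes above background.

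Probe sets of 1 gene often disagreed in level. The 79 genes were measured by 136 probe sets, and 38 genes had more than 1, with a median gap of 1.67 log2 units between the highest and the lowest. For 10 genes the probe sets lay on both sides of the threshold. The widest gap was that of Cox5b, whose 4 probe sets had means of 11.56, 10.92, 7.16 and 4.53. Those of Cycs had 10.03, 8.16 and 4.37. Sdha had 2 probe sets above the threshold and 2 below it. When each gene was represented by its lowest probe set, 66 of 79 members were above background, against 41.3% of all genes, and Cycs was among the genes lost.

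**Figure D4:**
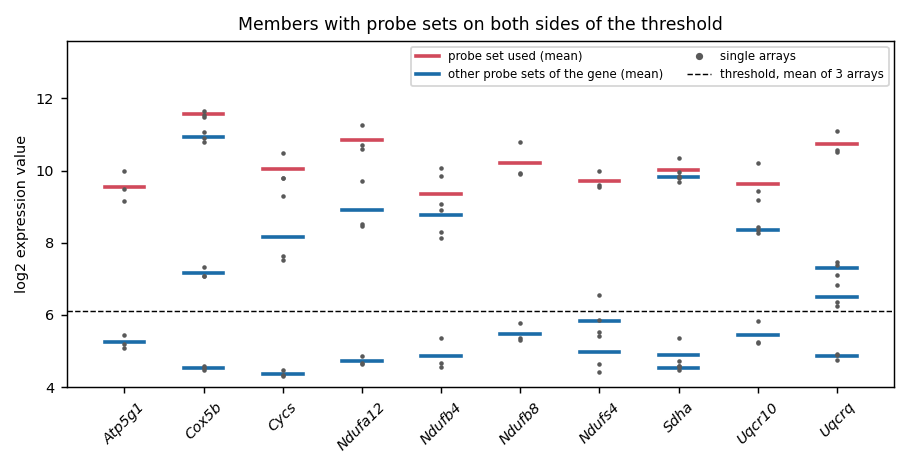
Log2 values (y axis) of every probe set of the 10 members whose probe sets lie on both sides of the threshold (dashed line, mean of the arrays). Bars are means over 3 arrays, red for the probe set used, and dots are single arrays; each gene has at least 1 probe set under the line.

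Genes that build or feed the respiratory chain were counted under the same calls, which took in 55.1% of all genes. Mitochondrial ribosomal proteins, which translate the subunits encoded in mitochondrial DNA, were above background in 70 of 71 cases, for example Mrpl1 (8.13 ± 0.44), Mrpl10 (8.08 ± 0.15), Mrpl11 (9.90 ± 0.29) and Mrpl12 (8.41 ± 0.24, SD, n = 3), and the exception was Mrpl47 (6.21 ± 0.31). Of 17 genes of electron entry, ubiquinone synthesis and carriers 16 were above background, among them the electron transfer flavoprotein gene Etfa (8.44, 8.62 and 10.43 on replicates 1, 2 and 3), Etfdh (8.37 ± 0.31), Gpd2 (7.97 ± 0.28) and Coq2 (8.15 ± 0.52), but not Dhodh (5.73 ± 0.90). Of 15 genes of the citric acid cycle and pyruvate dehydrogenase 13 were above background, such as the citrate synthase gene Cs (10.89 ± 0.29) and the isocitrate dehydrogenase genes Idh3a (8.30 ± 0.33), Idh3b (10.43 ± 0.11) and Idh3g (10.61 ± 0.23). The pyruvate dehydrogenase genes Dlat and Pdhx were not, and Dlat had 6.35, 6.32 and 8.42, above the threshold on every array and not called (adjusted p = 0.107).

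Assembly factors, which put the complexes together without staying in them, had 30 of 41 members above background (all genes 55.1%), with a median of 1.32 above the threshold (4.08 for the subunits and 0.78 for all genes). They included the complex I factors Ndufaf2 (9.05 ± 0.23), Ndufaf3 (6.98 ± 0.02), Ndufaf5 (7.14 ± 0.26) and Ndufaf8 (8.82 ± 0.10, SD, n = 3). Those not called included Ndufaf1 (5.43 ± 0.11), Ndufaf4 (7.01 ± 0.90), Ndufaf6 (6.58 ± 0.52), Tmem126b (5.96 ± 0.35), Sdhaf3 (5.25 ± 0.58) and Lyrm7 (6.27 ± 0.04). With tissue-restricted genes as background 10 of the 41 were called, a share near the 20.9% of all genes. Of 11 regulators of mitochondrial biogenesis 9 were above background, among them Nrf1, the gene of NRF-1 (8.56 ± 0.23), Pprc1 (8.11 ± 0.07), Gabpa (6.91 ± 0.17) and Gabpb1 (8.96 ± 0.42). The coactivator gene Ppargc1b (5.04 ± 0.45) and the mitochondrial RNA polymerase gene Polrmt (5.62, 5.70 and 7.01 on replicates 1, 2 and 3) were not called. Glycolysis, which makes ATP in the cytosol, had 15 of 16 genes above background. The glucose transporter gene Slc2a1 stood at 11.07 ± 0.29, Hk1 at 9.03 ± 0.36, Hk2 at 7.95 ± 0.42 and Pfkl at 10.22 ± 0.04, while Aldoc (6.33 ± 0.56) was not above background. On replicate 3, the median over the genes above background stood 0.53 above the other arrays for the subunits, 0.64 for the citric acid cycle, 0.46 for electron entry and carriers, 0.35 for assembly factors, 0.33 for mitochondrial ribosomal proteins, 0.29 for biogenesis regulators and 0.23 for glycolysis. For all genes above background it was 0.24, and no test compares these lists.

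**Figure D5:**
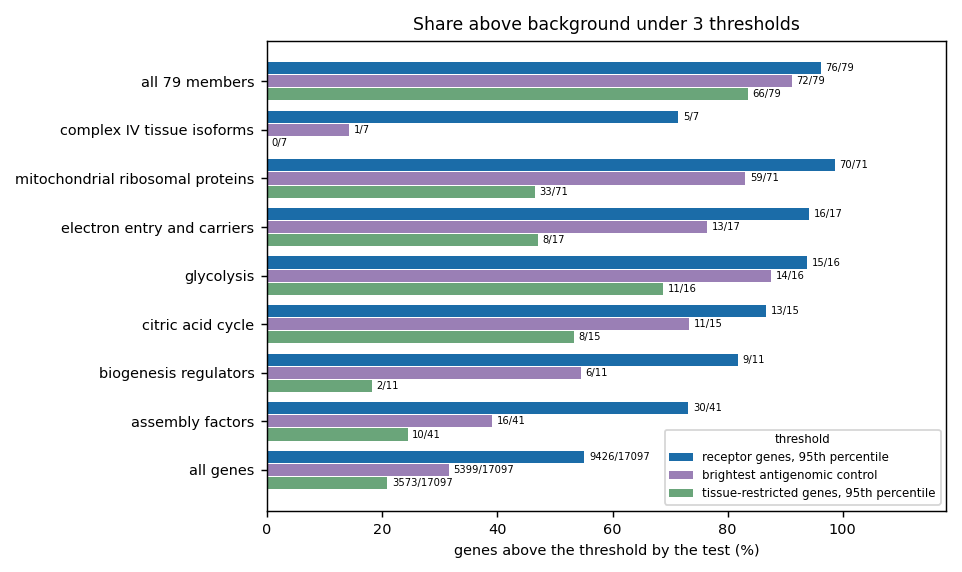
Share of genes called above background (x axis, percent) for the members, the tissue isoforms of complex IV, the related gene lists and all genes under 3 thresholds (bar colours), with counts beside the bars. The members keep 66 of 79 under the strictest threshold, the tissue isoforms 0 of 7.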

How the data were processed

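RNA of sorted mammary cells was measured on 3 arrays, 1 per litter. The authors deposited 1 log2 value per probe set and array. RMA and affy appear in the submitters' processing notes with neither version nor options, and joint normalization of the arrays is not stated. RMA in general compresses differences of weak probe sets. The table held 45141 probe sets, of which 28898 had 1 gene symbol in the platform annotation and 551 had several. Only probe sets with 1 symbol were used, for 17097 genes.

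The threshold of each array (6.14, 6.17 and 5.99) was the value that 95% of 74 chemosensory receptor genes stayed under. The log2 value minus the threshold was fitted with limma 3.58.1 in R 4.3.3 (intercept, empirical Bayes with a trend, one-sided p for a mean above 0, Benjamini-Hochberg over all genes), and adjusted p under 0.05 was called. The p-values reflect the spread over 3 litters, with the threshold taken as exact. Arrays give no count depth, and their number limits the precision. Levels of different probe sets are not comparable as abundance. The step was tested on simulated data. Tables and figures were made with Python 3.11.15, pandas 2.3.3 and matplotlib 3.10.9.

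The members and lists were chosen with earlier results of these data known, and the split of complex IV into tissue isoforms and other genes was written out after the values were seen. Values on every array were given by rule for members not called, core subunits, isoform families, the 10 members with the largest range and the 3 furthest above and below on each array. In each related list the first 4 genes called and up to 6 not called, in list order, were named. Other genes (Col1a1, Hba-a1, Pecam1 and the muscle and germ cell markers) were chosen after their values were seen. The alternatives were other thresholds, normalizations, probe set choices and variance models, and leaving out each array. Promoter windows came from RefSeq (GRCm38.p6). Protein sequences were not used here.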

Additional observations from a re-analysis of the deposited data

How the results depend on the processing

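The count of 76 of 79 members above background stayed within 55 (of 61 measured) and 77 over the 14 alternatives, and 56 members kept their call in each alternative that measured them. The threshold mattered more for all genes, of which 3573 were called with tissue-restricted genes and 5399 with the brightest antigenomic control, against 9426. With tissue-restricted genes as background, 0 of 7 tissue isoforms of complex IV, 10 of 41 assembly factors, 8 of 15 citric acid cycle genes, 2 of 11 regulators of biogenesis, 8 of 17 genes of electron entry and carriers and 33 of 71 mitochondrial ribosomal protein genes were called, and the means of Cox8b (-0.23) and Cox8c (-0.20) lay below the threshold. With the antigenomic control, 1 tissue isoform and 16 assembly factors were called. With the lowest probe set of a gene, 10 members lay below the threshold: Ndufa12 (-1.16), Ndufb4 (-1.02), Ndufb8 (-0.41), Ndufs4 (-0.91), Sdha (-1.35), Uqcr10 (-0.45), Uqcrq (-1.03), Cycs (-1.51, so 0 of 1), Cox5b (-1.35) and Atp5g1 (-0.64). Without probe sets whose names carry a suffix s, x or a, 5 of 6 measured genes of complex III and 9 of 10 of glycolysis were called. Under that setting Ndufa12 (-1.22), Ndufb8 (-0.47), Uqcr10 (-0.51) and Atp5g1 (-0.71) lay below the threshold. The probe sets dropped for Ndufb8 and Atp5g1 carried the suffix a, and those dropped for Uqcr10 the suffixes a and x. Without replicate 3, Cox7a1 (0.39) was called. Quantile normalization gave the members a median deviation of 0.0086 on replicate 1, against -0.18, and of 0.12 on replicate 3. The causes of these changes were not tested. Only 3 arrays limit these calls. No paired analysis was possible because the samples form 1 group.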
